A study of Mus musculus with 8 samples.

Results

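Toll-like receptors sense microbial and endogenous molecules, and 10 genes of their proximal signalling chain were followed here in mouse hepatocytes after silencing of Casp8. The genes were the receptors Tlr2, Tlr3 and Tlr4, the co-receptors Cd14 and Ly96, the adaptors Myd88 and Ticam1, the kinases Irak1 and Irak4, and the ubiquitin ligase gene Traf6. They were chosen by symbol, and all 10 were found among the 34945 named genes of the deposited table. All 10 also passed the filter on low values, a mean of at least 10 over the 8 libraries, which kept 14154 genes.

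The cells were AML12, an established mouse hepatocyte line whose donor animal expressed human TGF-alpha from a transgene. Per the labels, 4 cultures (siCasp8) were transfected with siRNAs against Casp8, which encodes the protease that starts apoptosis at death receptors, and 4 cultures of the same unmodified line (Scr) with a scrambled siRNA. In both groups the siRNA was at 40 nM in a lipid reagent, serum and antibiotics were in the medium, and RNA was taken after 48 hours. The labels name no Toll-like receptor ligand. The design text calls the cultures biological replicates, but all come from 1 line, and the sources used here do not give the siRNA sequences. Poly-A RNA was sequenced, and values are the normalized signal per gene as the authors deposited it.

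Toll-like receptors carry a TIR domain inside the cell that recruits adaptors with the same domain. Most receptors use MyD88, which assembles the kinases IRAK4 and IRAK1 and then the ubiquitin ligase TRAF6 to activate NF-kB and MAP kinases. TLR3, an endosomal receptor for viral-type RNA duplexes, instead uses TRIF, the product of Ticam1, which leads to IRF3 and type I interferon and can also bind RIPK1 and so reach caspase-8. TLR4 senses bacterial lipopolysaccharide with the help of MD-2 (Ly96) and CD14, and uses both adaptors. In liver, Kupffer cells carry much of the lipopolysaccharide response, while hepatocytes make the binding protein LBP that delivers it.

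Of the 10 genes, 4 were higher in siCasp8 than in Scr cultures (Tlr3, Irak4, Ticam1 and Myd88), 2 were lower (Cd14 and Irak1), and 4 did not pass the test (Tlr2, Tlr4, Ly96 and Traf6). Calls rest on limma's moderated test on log2(value + 1), with Benjamini-Hochberg adjustment over all tested genes and a threshold of 0.05. Under the same rule 40.2% of all tested genes were called, 19.4% higher and 20.8% lower (2739 and 2950 genes). This balance moved with the scaling, to 3263 higher and 2459 lower with a common total and to 3148 and 2535 with the upper quartile. With quantile normalization it was 2968 higher and 2672 lower. The groups did not overlap for 5 of the 10 genes, against 37.5% of all tested genes. The median log2 fold change of the 10 was 0.11, and that of all tested genes 0.00. The changes were small, since the 6 called members had a median absolute log2 fold change of 0.25, against 0.30 over all called genes.

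**Figure D1:**
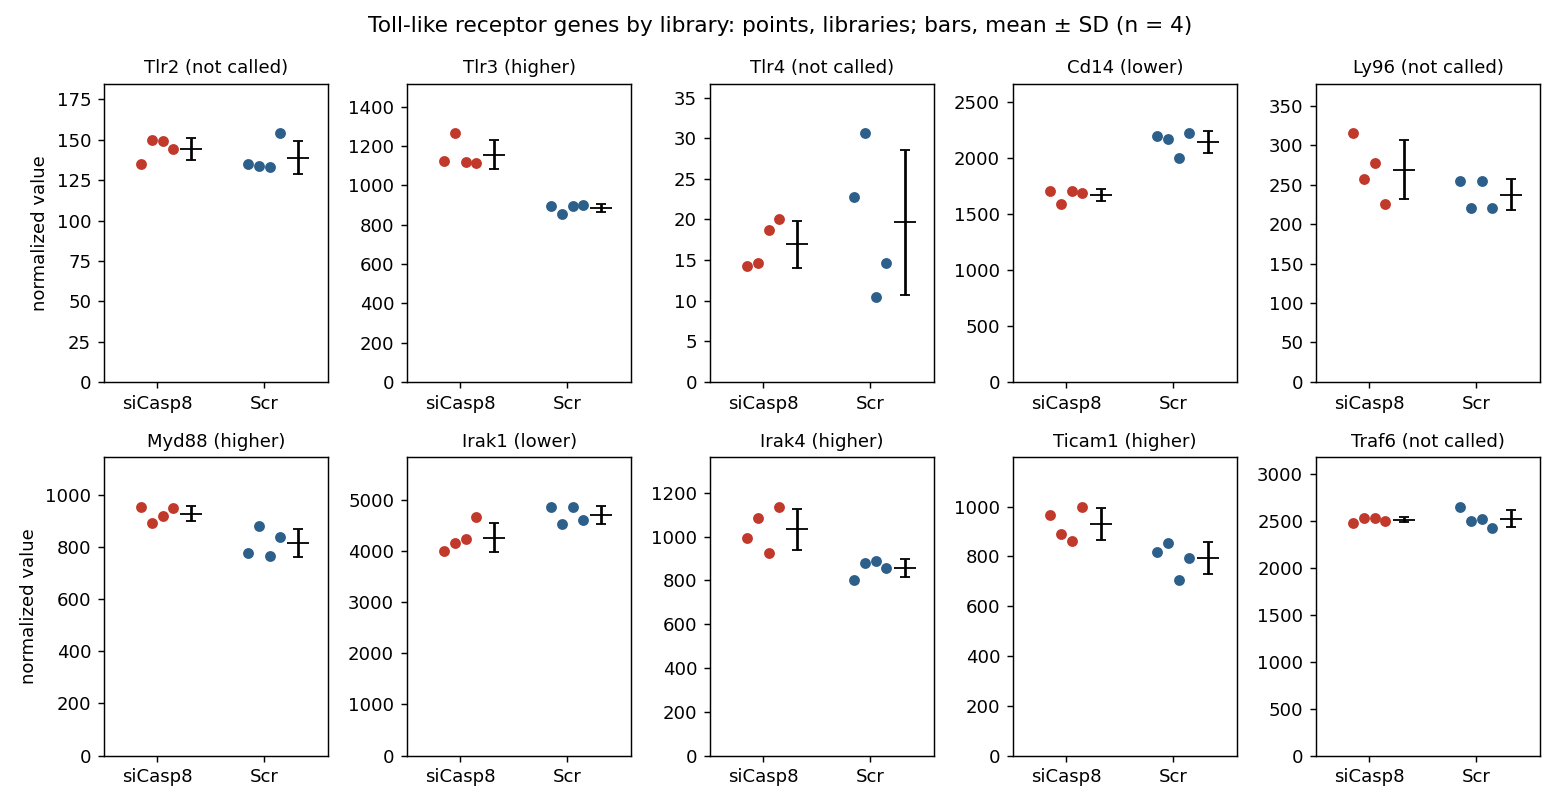
Normalized value of each of the 10 genes (vertical axis, from 0) in the 4 siCasp8 and the 4 Scr libraries, with points for libraries and bars for mean ± SD. The groups stand apart for Tlr3, Cd14, Myd88, Irak4 and Ticam1, and overlap for the other 5 genes.

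Casp8 itself was far lower in the silenced cultures. It had values of 1374, 1431, 1627 and 1490 in siCasp8 libraries 1 to 4, against 3936, 3995, 4134 and 3825 in Scr libraries 1 to 4. This is a log2 fold change of -1.43 (limma adjusted p = 5.94e-09, SE 0.0525). Estimated depth was 50.3 to 56.8 M reads in the siCasp8 libraries and 30.7 to 51.8 M in the Scr libraries (exact two-sided permutation p = 0.0571, n = 4 each). Depth therefore moved with the groups, with overlapping ranges. With estimated depth as a covariate 2 of the 10 genes were called, Tlr3 and Cd14, and 2807 of all genes in place of 5689. In that fit Myd88 (0.19), Ticam1 (0.29), Irak4 (0.20) and Irak1 (-0.16) kept the sign of their log2 fold change. Their SEs were larger, at 0.0968, 0.113, 0.11 and 0.0784, against 0.0594, 0.0711, 0.069 and 0.0482 without depth. Since depth moved with the groups, their effects cannot be fully told apart.

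Tlr3 was the receptor gene that rose. Its values were 1125, 1264, 1119 and 1111 in siCasp8 libraries 1 to 4, against 895, 856, 896 and 898 in Scr libraries 1 to 4. Every siCasp8 library lay above every Scr library, and siCasp8 replicate 2 lay above the other siCasp8 libraries. The difference on the log2 scale was 0.38 (SE 0.055, 95% interval 0.26 to 0.50, limma adjusted p = 0.000158), a level 30.1% higher, and 20.5% of tested genes changed by more in either direction. Tlr3 was called in all 8 fits that left out 1 library (log2 fold change 0.34 to 0.40), and adding depth as a covariate gave 0.33 (adjusted p = 0.0206). Tlr3 occupies bases 45395665 to 45411080 of chromosome 8 (GRCm38, minus strand), where exons of Gm45542 on the other strand overlap it. Gm45542 is not a symbol of the table, and the sources used here do not say whether reads were counted by strand.

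Tlr2, the receptor for bacterial lipoproteins, had values of 135, 150, 149 and 144 in siCasp8 libraries, against 135, 134, 133 and 154 in Scr libraries. The groups overlapped, with the highest value in Scr replicate 4. Tlr2 thus differed by 0.06 on the log2 scale (95% interval -0.17 to 0.28, limma adjusted p = 0.71).

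Tlr4, the lipopolysaccharide receptor, was close to the limit of what the libraries could measure. Its values were 14.3, 14.7, 18.7 and 20.1 in siCasp8 libraries, against 22.8, 30.6, 10.5 and 14.6 in Scr libraries. These correspond to an estimated 16.3 to 25.8 reads per siCasp8 library and 8.87 to 20.8 reads per Scr library. The log2 fold change of -0.11 had a 95% interval from -0.84 to 0.62 (limma adjusted p = 0.829), so a change of the size seen for Tlr3 was not detectable at this depth. Without Scr replicate 2, the library with the highest value, the log2 fold change was 0.13 (adjusted p = 0.784). The within-library log2 ratio of Tlr3 over Tlr4 was 6.02 ± 0.291 in siCasp8 and 5.53 ± 0.672 in Scr, and that of Tlr2 over Tlr4 was 3.03 ± 0.22 in siCasp8 and 2.87 ± 0.676 in Scr (SD, n = 4 each). The groups overlapped for both ratios, with differences of 0.49 (exact two-sided permutation p = 0.286, adjusted over 5 pairs of members p = 0.476) and 0.16 (exact p = 0.686, adjusted p = 0.686).

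Cd14, which encodes the co-receptor that hands lipopolysaccharide to TLR4 and MD-2, fell. Its values were 1709, 1595, 1709 and 1687 in siCasp8 libraries, against 2198, 2170, 2003 and 2223 in Scr libraries. All 4 siCasp8 libraries lay below the lowest Scr library, replicate 3. On the log2 scale the difference was -0.36 (SE 0.0465, 95% interval -0.46 to -0.26, limma adjusted p = 6.46e-05), a change of -22%. It was called in all 11 other settings and all 8 fits without 1 library, with log2 fold changes from -0.39 to -0.33.

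Ly96, the gene of MD-2, which binds lipopolysaccharide within the TLR4 complex, was not called. It had values of 315, 257, 278 and 226 in siCasp8 libraries, against 254, 220, 255 and 221 in Scr libraries, and the groups overlapped. Its difference on the log2 scale was 0.17 (95% interval -0.07 to 0.41, limma adjusted p = 0.238). Within each library the log2 ratio of Cd14 over Ly96 was 2.64 ± 0.189 in siCasp8 and 3.17 ± 0.169 in Scr (SD, n = 4 each), a difference of -0.53 with no overlap between groups. Its exact two-sided permutation p of 0.0286 is the smallest that 4 against 4 libraries can give, and adjusted over the 5 pairs of members compared it was 0.0714, which missed the threshold.

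**Figure D2:**
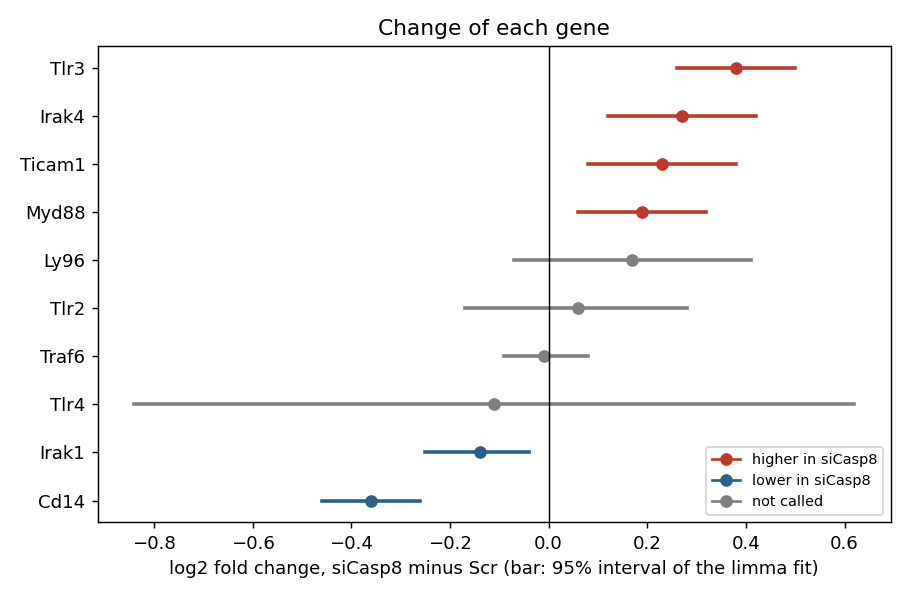
Log2 fold change of each of the 10 genes, siCasp8 minus Scr (horizontal axis), with the 95% interval of the limma fit, coloured by the call. Tlr3 at 0.38 and Cd14 at -0.36 are the extremes, and the interval of Tlr4 is the widest, from -0.84 to 0.62.

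Both adaptor genes rose by similar amounts. Myd88 had values of 953, 891, 917 and 950 in siCasp8 libraries, against 777, 882, 766 and 840 in Scr libraries. The groups were apart by a narrow margin, 891 against 882. Myd88 differed by 0.19 on the log2 scale (SE 0.0594, limma adjusted p = 0.0247), and the call was lost in 4 of the 8 fits that left out 1 library: siCasp8 replicate 1 (adjusted p = 0.0676), siCasp8 replicate 4 (0.0639), Scr replicate 1 (0.0639) and Scr replicate 3 (0.0597). Exons of Acaa1a, a peroxisomal thiolase gene on the other strand, overlap Myd88 (chromosome 9 from 119335934 to 119341411), and Acaa1a was also higher, with a mean of 4451 ± 79.9 in siCasp8 and 4040 ± 236 in Scr (log2 fold change 0.14, limma adjusted p = 0.0213). Whether reads of one were assigned to the other was not tested.

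Ticam1, the gene of TRIF, had values of 966, 891, 863 and 998 in siCasp8 libraries, against 819, 854, 705 and 794 in Scr libraries. Here too the groups were apart by a narrow margin, 863 against 854. Ticam1 differed by 0.23 on the log2 scale (SE 0.0711, limma adjusted p = 0.0213). The call was lost without siCasp8 replicate 1 (adjusted p = 0.0621), siCasp8 replicate 4 (0.0674) or Scr replicate 3 (0.0517), and with depth as a covariate (log2 fold change 0.29, adjusted p = 0.0959). The within-library log2 ratio of Ticam1 over Myd88 was 0.00 ± 0.0656 in siCasp8 and -0.04 ± 0.0851 in Scr (SD, n = 4 each), a difference of 0.04 that was smaller than the spread (exact two-sided permutation p = 0.486, adjusted p = 0.607).

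The kinase genes went in opposite directions. Irak4, which encodes the kinase that first joins MyD88, had values of 992, 1085, 924 and 1135 in siCasp8 libraries, against 801, 879, 891 and 859 in Scr libraries. All siCasp8 libraries were above all Scr libraries. Irak4 differed by 0.27 on the log2 scale (SE 0.069, limma adjusted p = 0.00827), a call kept in all 8 fits that left out 1 library but not with depth as a covariate (0.20, adjusted p = 0.231). Twf1, a gene of actin turnover on the other strand whose exons overlap Irak4 (chromosome 15 from 94543643 to 94581815), was lower, with a mean of 9491 ± 397 in siCasp8 and 10432 ± 261 in Scr (log2 fold change -0.14, limma adjusted p = 0.0107). The part of such overlaps in the values of Irak4 was not tested.

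Irak1, which encodes the kinase that IRAK4 activates, had values of 3996, 4161, 4230 and 4652 in siCasp8 libraries, against 4853, 4520, 4854 and 4594 in Scr libraries. The groups overlapped, since siCasp8 replicate 4 exceeded 2 of the Scr libraries. Irak1 differed by -0.14 on the log2 scale (SE 0.0482, limma adjusted p = 0.0303). This was the least stable of the 6 calls: it was lost in 5 of the 8 fits that left out 1 library (adjusted p of 0.0984 without siCasp8 replicate 1, 0.0813 without siCasp8 replicate 2, 0.0619 without siCasp8 replicate 3, 0.0774 without Scr replicate 1 and 0.0652 without Scr replicate 3), and after rescaling to a common total (-0.11, adjusted p = 0.0817). The log2 ratio of Irak1 over Irak4 was 2.04 ± 0.108 in siCasp8 and 2.46 ± 0.101 in Scr (SD, n = 4 each), a difference of -0.41 with no overlap between groups. Its exact two-sided permutation p was 0.0286 and its adjusted p 0.0714.

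Traf6, the ubiquitin ligase gene on which the MyD88 branch converges, had values of 2481, 2535, 2536 and 2500 in siCasp8 libraries, against 2650, 2502, 2523 and 2430 in Scr libraries. The siCasp8 libraries lay within the Scr range. The log2 fold change was -0.01 with a 95% interval from -0.09 to 0.08 (limma adjusted p = 0.905), the narrowest of the 10.

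DNA next to the RefSeq starts of genes that moved is shown because Myd88, Ticam1 and Irak4 rose together while Irak1 fell. RefSeq promoter windows (GRCm38.p6, 250 bases before to 50 after the annotated start) were given for 7 of the 10 genes. The stretches below are the longest runs of the 250 bases before the start that GENCODE annotates as no exon, and are written 5′ to 3′ in the sense of the gene. They lie at chr9:119340042-119340268 on the minus strand for Myd88, chr17:56276787-56277017 on the minus strand for Ticam1, chr15:94543548-94543642 on the plus strand for Irak4 and chrX:74023937-74024171 on the minus strand for Irak1. Capitals mark a match to the interferon-stimulated response element core GAAANNGAAA on either strand. The Myd88 stretch lies before the RefSeq start but within the GENCODE span of the gene, whose 5′ end is at 119341411, so it is not upstream of every annotated transcript. The Tlr3 window is mostly annotated exon and is not shown.
Myd88: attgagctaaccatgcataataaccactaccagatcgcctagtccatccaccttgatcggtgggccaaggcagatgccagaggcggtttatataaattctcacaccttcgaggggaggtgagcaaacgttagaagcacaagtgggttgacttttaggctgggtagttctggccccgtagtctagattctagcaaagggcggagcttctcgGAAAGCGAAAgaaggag
Ticam1: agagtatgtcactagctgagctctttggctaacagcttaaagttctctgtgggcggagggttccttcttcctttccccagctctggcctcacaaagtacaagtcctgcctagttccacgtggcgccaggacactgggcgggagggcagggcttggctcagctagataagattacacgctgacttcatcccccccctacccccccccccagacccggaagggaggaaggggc
Irak4: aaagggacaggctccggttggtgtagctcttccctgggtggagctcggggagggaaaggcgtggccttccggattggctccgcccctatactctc
Irak1: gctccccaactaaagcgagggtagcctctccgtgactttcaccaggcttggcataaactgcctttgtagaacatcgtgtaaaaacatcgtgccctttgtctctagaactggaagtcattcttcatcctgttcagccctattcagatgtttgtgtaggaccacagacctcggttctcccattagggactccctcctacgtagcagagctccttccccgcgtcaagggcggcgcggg
The Myd88 stretch held the only such match among the 7 windows, beginning 40 bases before the RefSeq start, and 3.44% of all 32851 promoter windows of this length held one. The NF-kB site consensus (kB), searched on both strands, was found in the 300-base windows of Tlr2, Tlr3 and Irak1, for Irak1 outside the stretch printed, and in 8.46% of all windows. It was not among the letters of the Myd88, Ticam1, Irak4 and Traf6 windows. The 7 windows had a GC content of 51% to 62%, where the median of all windows was 52.7%. These matches describe the sequence and were not tested for binding.

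The level per transcript length placed the genes in nearly the same order in both groups. Per kb of the longest annotated coding transcript, Irak1 was the highest in siCasp8 libraries at 1111 ± 72.8 normalized units per kb, followed by Cd14 at 1021 ± 33.2, and their ranges only just failed to overlap. In Scr libraries Cd14 averaged 1309 ± 60.6 and Irak1 1227 ± 45.4 per kb, and their ranges overlapped (SD, n = 4 each). Myd88, Ly96 and Traf6 lay between 407 and 473 per kb on average in siCasp8 libraries and between 376 and 416 in Scr libraries, with overlapping neighbours. Ticam1, Irak4 and Tlr3 followed at 311, 301 and 262 per kb in siCasp8 libraries, with overlapping neighbours, and at 265, 249 and 201 in Scr libraries, where Tlr3 stood apart from Irak4. Tlr2 had 47.9 per kb in siCasp8 and 46.2 in Scr, and Tlr4 was the lowest at 4.16 per kb in siCasp8 and 4.82 in Scr. The transcript lengths are those of GENCODE M21, not necessarily of the authors' annotation. Full lengths were used with no correction for fragment length, which matters most for the shortest transcript, that of Ly96 (0.632 kb). The place of Ly96 in the order is therefore uncertain.

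**Figure D3:**
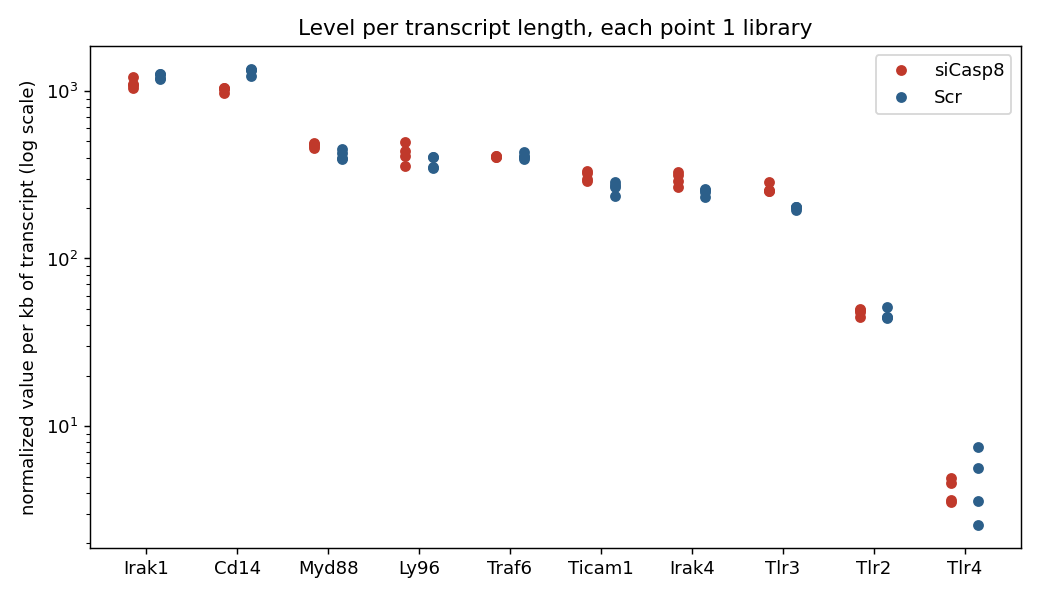
Normalized value per kb of transcript on a log scale (vertical axis) for each of the 10 genes, with siCasp8 libraries left and Scr libraries right of each tick. Irak1 and Cd14 are highest, with means of 1111 and 1021 per kb in siCasp8 libraries, and Tlr4 is lowest, with means of 4.16 in siCasp8 and 4.82 in Scr.

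Of the other Toll-like receptor genes, 3 of 10 were tested and none was called, against 40.2% of all tested genes. With 3 tested genes this says little about the list. Tlr1, a partner of TLR2, had a mean of 254 ± 17.6 in siCasp8 and 237 ± 31.5 in Scr (log2 fold change 0.10, limma adjusted p = 0.47). Tlr6, the other partner of TLR2, had 120 ± 41.2 in siCasp8 and 104 ± 25.2 in Scr (0.18, adjusted p = 0.565). The flagellin receptor gene Tlr5 had 5.26, 22.8, 9.79 and 16.1 in siCasp8 libraries and 25.2, 22.1, 2.33 and 4.24 in Scr libraries (0.34, adjusted p = 0.724). Its mean was 13.5 in both groups, so the 0.34 reflects the log scale and not a higher mean. Tlr7, Tlr9, Tlr12, Tlr13 and the related Cd180 did not exceed 6.09 in any library and were not tested, and Tlr8 and Tlr11 were listed at 0 in all 8. The endosomal receptors for single-stranded RNA and for DNA were thus near or at 0, and Tlr3 was the one endosomal receptor gene that passed the filter.

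Among 10 genes of receptor accessory and trafficking proteins, 8 were tested, with 2 higher and 2 lower (50% called, against 40.2% of all tested genes). Unc93b1, which encodes the chaperone that carries TLR3 and the other nucleic acid receptors to endosomes, rose. It had 258, 270, 241 and 220 in siCasp8 libraries and 157, 178, 162 and 157 in Scr libraries, with no overlap (log2 fold change 0.59, limma adjusted p = 0.000421). Rab7b, a small GTPase gene of late endosomes, rose as well (0.76, limma adjusted p = 0.00168), at 140 ± 14.7 in siCasp8 and 83.2 ± 17.4 in Scr. Tmed7, a gene of secretory transport, fell by 0.31 and Hmgb1, the gene of a chromatin protein that can act as a ligand when released, fell by 0.18 on the log2 scale. Lbp was abundant in both groups, with 15831 ± 532 in siCasp8 and 16216 ± 648 in Scr, and was not called (log2 fold change -0.03, adjusted p = 0.51).

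Of the other TIR adaptors and IRAK kinases, 5 were tested and 2 were lower (40% called, against 40.2% of all tested genes). Pik3ap1, the gene of the PI3-kinase adaptor BCAP, had 9810 ± 564 in siCasp8 and 12346 ± 658 in Scr (log2 fold change -0.33, limma adjusted p = 0.000153). Irak2, the gene of a kinase that sustains signalling, had 2179 ± 86.7 in siCasp8 and 2443 ± 104 in Scr (-0.16, adjusted p = 0.0119). Tirap, the adaptor gene that bridges TLR2 and TLR4 to MyD88 (-0.08, adjusted p = 0.25), Irak3, an inhibitory family member (0.09, adjusted p = 0.424), and Sarm1 (-0.30, adjusted p = 0.127) were not called. Ticam2, the bridge from TLR4 to TRIF, had at most 10.2 in any library and was not tested.

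Downstream of TRAF6, the ubiquitin, TAK1 and IKK arm had 1 of 27 genes higher and 5 lower. This was a share of 22.2% called, against 40.2% of all tested genes. The split depended on the scaling. It was 5 higher and 3 lower under quantile normalization, 4 and 5 with a common total and 3 and 5 with the upper quartile. With the depth covariate it was 1 and 2, where 2807 of all 14154 tested genes were called. Peli1, the gene of a ubiquitin ligase that modifies IRAK kinases, fell to 2641 ± 85.2 in siCasp8, against 3507 ± 110 in Scr (log2 fold change -0.41, limma adjusted p = 5.82e-06). Its paralogue Peli3 rose to 338 ± 32.1, against 252 ± 13.4 in Scr (0.42, adjusted p = 0.00233). The NF-kB subunit gene Nfkb1 fell by 0.37 on the log2 scale (adjusted p = 4.68e-06), the IKK scaffold gene Ikbkg fell by 0.20 (adjusted p = 0.00885) and the TAK1 adaptor gene Tab2 fell by 0.14 (adjusted p = 0.00522). The TAK1 gene Map3k7 was not called (-0.09, adjusted p = 0.161).

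In the TRIF arm towards IRF3 and cell death, without Casp8 and Ticam1, 2 of 16 genes were higher and 4 lower. This was 37.5% called, against 40.2% of all tested genes. With a common total 5 were higher and 2 lower, and with the upper quartile 4 and 2. Without siCasp8 replicate 1 the counts were 3 higher and 2 lower. With the depth covariate they were 1 and 1, where 2807 of all 14154 tested genes were called. Tank, an adaptor gene of the kinase TBK1, fell to 1153 ± 34.8 in siCasp8, against 1672 ± 130 in Scr (log2 fold change -0.53, limma adjusted p = 1.41e-05). Fadd, whose product recruits caspase-8, fell by 0.29 (adjusted p = 0.00122), Traf3 fell by 0.19 (adjusted p = 0.0273) and Ripk1 fell by 0.10 (adjusted p = 0.043). Irf7, an interferon regulatory factor gene, rose to 108 ± 15 in siCasp8, against 64 ± 14.8 in Scr (0.76, adjusted p = 0.00455), and Tbkbp1, another TBK1 adaptor gene, rose by 0.35 (adjusted p = 0.0068). The calls of Traf3 and Ripk1 were lost with both of those scalings and with depth. With depth, those of Fadd (log2 fold change -0.25, limma adjusted p = 0.0759) and Tbkbp1 (0.34, adjusted p = 0.126) were also lost. Without 1 library, Traf3 was lost in 5 of 8 fits, those without siCasp8 replicate 1, 3 or 4 or Scr replicate 1 or 2 (adjusted p of 0.0635 to 0.0842), and Ripk1 in 7 of 8, all but that without siCasp8 replicate 3 (0.0604 to 0.126). Irf3 (0.06, adjusted p = 0.221) and Tbk1 (0.12, adjusted p = 0.0607) were not called.

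Negative regulators were called in 8 of 25 cases, 3 higher and 5 lower (32%, against 40.2% of all tested genes). The phosphatase gene Dusp1 fell by 1.27 on the log2 scale (limma adjusted p = 2.46e-07), the ubiquitin-editing gene Tnfaip3 (A20) by 0.43 (adjusted p = 3.97e-05) and the deubiquitinase gene Cyld by 0.35 (adjusted p = 5.01e-05). Trafd1 rose by 0.29 (adjusted p = 0.00137), Pdlim2 by 0.36 (adjusted p = 0.00576) and Bcl3 by 0.20 (adjusted p = 0.00778). Nfkbia, the gene of the main NF-kB inhibitor (-0.08, adjusted p = 0.323), and Tollip (0.01, adjusted p = 0.855) were not called.

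The interleukin-1 receptors share MyD88, IRAK4 and IRAK1 with the Toll-like receptors. Of 9 tested genes of that family 5 were called, 2 higher and 3 lower (55.6%, against 40.2% of all tested genes). The receptor gene Il1r1 fell to 2033 ± 49.7 in siCasp8, against 2556 ± 106 in Scr (log2 fold change -0.33, limma adjusted p = 5.83e-05). Its accessory chain Il1rap rose to 282 ± 21.4, against 190 ± 22 in Scr (0.57, adjusted p = 0.000821). Il18rap fell by 0.37 (adjusted p = 0.00129) and Il1rl1 by 0.94 (adjusted p = 0.0144), and the receptor antagonist gene Il1rn was higher by 0.70 (adjusted p = 0.0465), with overlapping groups for Il1rl1 and Il1rn. The Il1rn call was lost in 6 of the 8 fits without 1 library, all but those without siCasp8 replicate 1 or Scr replicate 1 (adjusted p of 0.0658 to 0.13), and with quantile normalization (0.0641), no trend (0.115), no filter on low values (0.0682) and the depth covariate (0.376). In the depth fit 1 gene of the family was higher and 2 lower, where 2807 of all 14154 tested genes were called.

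**Figure D4:**
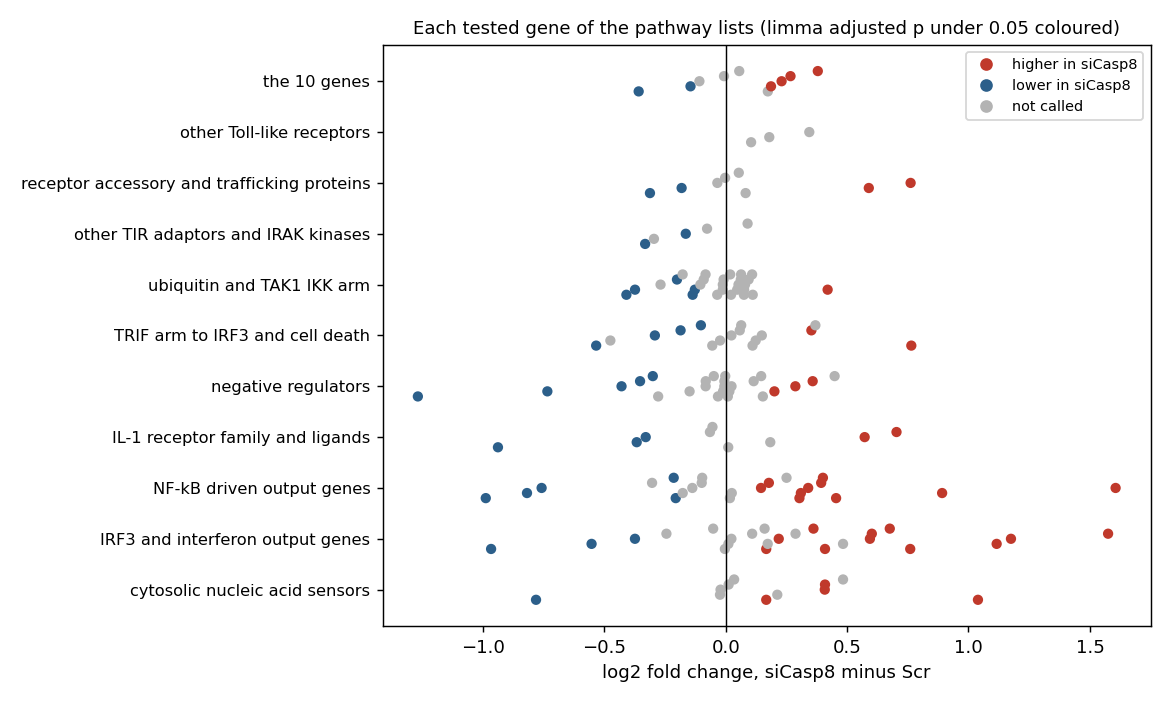
Log2 fold change, siCasp8 minus Scr (horizontal axis), of every tested gene of the 10 genes and of 10 pathway lists, 1 point per gene, coloured where the limma adjusted p was under 0.05. The widest spread is among the NF-kB output genes, from -0.99 to 1.61, and none of the 3 tested genes of the other Toll-like receptors is called.

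Of 23 tested genes that NF-kB drives, 10 were higher and 5 lower (65.2% called, against 40.2% of all tested genes). The list's median on the log2 scale was 0.03. The adhesion gene Vcam1 rose by 0.89 (limma adjusted p = 2.04e-08), the chemokine gene Ccl20 by 0.39 (adjusted p = 4.88e-06) and the complement gene Cfb by 0.30 (adjusted p = 9.71e-06). The chemokine genes Ccl2, Cxcl5 and Ccl7 fell by 0.76, 0.82 and 0.99 on the log2 scale (adjusted p of at most 0.000385). Il6 and Tnf, classic outputs of TLR4 in macrophages, did not exceed 2.57 and 6.46 in any library and were not tested.

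Genes of the IRF3 and interferon output, the branch downstream of TLR3 and TRIF, had 11 of 24 higher and 3 lower. This was 58.3% called, against 40.2% of all tested genes, with a median of 0.20 on the log2 scale. Cxcl11 rose to 194 ± 15.9 in siCasp8, against 89.6 ± 12.9 in Scr (1.12, limma adjusted p = 2.15e-05), and Cxcl10 to 166 ± 7.74, against 97.8 ± 11.3 in Scr (0.76, adjusted p = 0.000253). Gbp2, a GTPase gene, rose by 0.60 (adjusted p = 6.9e-05). Ifit3 and Ifit2 went the other way and fell by 0.97 (adjusted p = 3.83e-07) and 0.55 (adjusted p = 3.4e-06). Ifnb1 was listed at 0 in all 8 libraries. Among genes listed for cytosolic nucleic acid sensing, with Nod1, Nod2 and Ripk2 also on the list, 4 of 11 were higher and 1 lower. This was 45.5% called, against 40.2% of all tested genes. Of these, Ifih1 rose by 0.41 (adjusted p = 0.0011), Sting1 by 0.41 (adjusted p = 0.0144) and Aim2 by 1.04 with overlapping groups (adjusted p = 0.0383), while Cgas fell by 0.78 (adjusted p = 0.000686). With the depth covariate none of the sensors was called higher (Ifih1 0.37, adjusted p = 0.0585, Sting1 0.28, adjusted p = 0.324, Aim2 0.28, adjusted p = 0.768), and Cgas was still lower. The number higher was 2 with no filter on low values, without a trend and in 4 of the 8 fits without 1 library. Aim2 was lost without siCasp8 replicate 2, 3 or 4 or Scr replicate 2 or 3 (adjusted p of 0.0511 to 0.103). The 10 lists shared some genes, and together held 147 distinct tested genes, of which 33 were higher and 30 lower. This was 42.9% called, against 40.2% of all tested genes, with 42 higher and 26 lower under a common total. With depth as a covariate 35 of these were called, 17 higher and 18 lower, where 2807 of all 14154 tested genes were called. Counts of that fit are to be set against that number and not against 40.2%. Of 23 tested NF-kB output genes 6 were higher and 3 lower in that fit. Of 24 tested IRF3 and interferon output genes 6 were higher and 2 lower. Of 25 tested negative regulators 0 were higher and 4 lower, and of 5 tested other TIR adaptors and IRAK kinases 0 and 1. The 8 tested accessory and trafficking proteins kept counts of 2 and 2.

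The 5 genes whose pattern over the 8 libraries was most like that of Tlr3, among 11371 genes with a mean of at least 50, were Pllp, Raph1, Tmem35b, Il10rb and Ly6g2, with Pearson correlations of log2(value + 1) from 0.980 to 0.986. Those most like Cd14 were Dtymk, Cenpn, Rgl1, Ulbp1 and Bysl, at 0.993 to 0.996. The points of each correlation share the 2 groups of libraries and their depth, and the correlations are a description. Il10rb, an interleukin receptor chain gene, had 1009 ± 50.3 in siCasp8 and 824 ± 13.9 in Scr. Dtymk, the gene of thymidylate kinase, had 1950 ± 56.4 in siCasp8 and 2506 ± 101 in Scr.

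Several defining markers of immune cells that carry Toll-like receptors were listed at 0, but the macrophage marker Csf1r was measured in every library. Of 14 macrophage and Kupffer cell markers, 6 were listed at 0 in every library (Adgre1, Clec4f, Marco, Vsig4, Cd5l and Tyrobp), and 4 passed the filter, with 1 higher (Mpeg1) and 1 lower (Csf1r). The sum over the list was 638 to 695 in siCasp8 libraries and 803 to 874 in Scr libraries, carried mainly by Csf1r, which had 347 ± 29.4 in siCasp8 and 569 ± 30.1 in Scr and fell (log2 fold change -0.72, limma adjusted p = 1.43e-05). The part of these markers in the difference of Cd14 was not tested. Neutrophil markers summed to 9.68 to 13.6 in siCasp8 libraries and 10.4 to 20.7 in Scr libraries, with Ly6g at 0 and Mpo the highest, and lymphocyte markers to 48.3 to 55.6 in siCasp8 and 33.9 to 73.5 in Scr, mostly Cd3d. The endothelial sum was 340 to 541 in siCasp8 and 328 to 670 in Scr, with Cdh5 and Lyve1 at 0 and Pecam1 the highest, and the stellate cell sum 100 to 179 in siCasp8 and 121 to 172 in Scr, with Hand2 at 0 and Col1a1 the highest. Cholangiocyte markers summed to 118267 to 125969 in siCasp8 libraries and 102415 to 111592 in Scr libraries, mostly Spp1. Hepatocyte markers summed to 144250 to 147951 in siCasp8 and 136164 to 144612 in Scr, led by Krt18. This sum does not show the change of single markers. Alb, also on the hepatocyte list, had a mean of 3626 in siCasp8 and 86.35 in Scr (log2 fold change 5.38, limma adjusted p = 4.1e-12). Of 9 tested hepatocyte markers 4 were higher and 2 lower, and of 5 tested cholangiocyte markers 2 and 2. Of 2 tested stellate cell markers 1 was higher and 1 lower. None of 3 tested endothelial markers and 1 tested lymphocyte marker was called, and no neutrophil marker passed the filter. Over all tested genes 40.2% were called, and lists with so few tested genes cannot be set against that share. In bulk RNA, fewer cells of a type and less RNA per cell cannot be told apart.

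**Figure D5:**
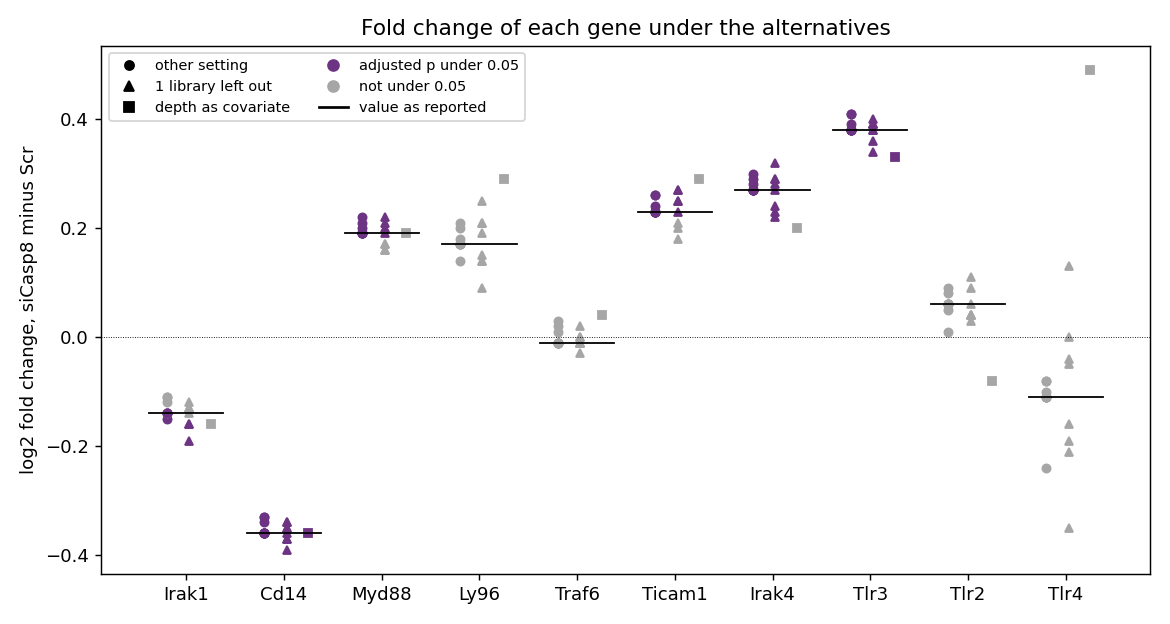
Log2 fold change of each of the 10 genes (vertical axis) as reported (black line) and under each alternative, purple where the adjusted p was under 0.05. The points of Tlr3 and Cd14 are all purple, and those of Tlr2, Tlr4, Ly96 and Traf6 are all grey.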

How the data were processed

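Poly-A RNA of 8 AML12 cultures was analysed, 4 siCasp8 and 4 Scr, each assigned from its title in the labels. Tools listed in the submitters' processing notes are kallisto 0.44.0, DESeq2, sleuth and bcl2fastq 2.19, with GRCm38 and GRCh38 as builds and no role for either. Per its name, the table deposited by the authors holds kallisto estimates normalized with DESeq2, and from its values it is a normalized signal per gene that is never negative. The sources used here do not give the annotation or how transcripts were summed to genes. 1 line without a symbol (0.0481% to 0.0631% of a library) was left out. Values sum to 44.1 to 45.6 M per library, so depth was estimated from the value that 1 read is worth (0.777 to 1.47). Between 66.1% and 75% of low values lay within 0.1 read of a whole multiple, so counts were not recovered and no count model was used.

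In R 4.3.3, limma 3.58.1 compared the groups (siCasp8 minus Scr, log2(value + 1), trended prior) for genes with a mean of at least 10, two-sided, with adjustment over all 14154 genes. This scale understates changes of low genes. The fit was tested on simulated log values with independent normal noise and known changes in a small part of the genes. The simulation had no depth difference between groups, so it does not show that the calls in these data are correct. Ratios of 5 pairs of members were compared by exact permutation over 70 arrangements. Alternatives changed the pseudocount, filter, scaling, trend, block, depth covariate and libraries. Named genes were the 10 members, Casp8, a fixed set of pathway genes, up to 3 called genes per list and direction, the most abundant marker per cell type, and the 5 genes most like the most strongly called member in each direction. Some genes that this rule gave are not reported here, but stay in the counts of their lists. The members, lists and tests were chosen with earlier results of these data known. Positions are from GENCODE M21 and promoters from RefSeq, both GRCm38.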

Additional observations from a re-analysis of the deposited data

Results flagged for a closer look

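In groups of 4 libraries, a library was set apart when its gap to the nearest of the others exceeded 0.829 of the group's range. This was applied to 182 groups of values of the named genes and of depth that were not all equal, and 17 passed. Chance flags about 1 in 20 groups of normally distributed values. A group with signal in only 1 library always passes, as for Tlr7 and Tlr12 in siCasp8 and Tlr9 and Cd180 in Scr. The 17 flags therefore cannot be set against that rate. Among the 10 genes, Tlr3 had 1264 in siCasp8 replicate 2, against 1111 to 1125 in the other siCasp8 libraries, and 856 in Scr replicate 2, against 895 to 898 in the other Scr libraries. Both deviations of Tlr3 are in replicate 2 and in opposite directions, and without either library the gene was still called. Tlr2 had 154 in Scr replicate 4, against 133 to 135 in the other Scr libraries.

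Other receptor genes were set apart at the level of a few reads. Tlr7 had 5.14 and Tlr12 had 0.857 in siCasp8 replicate 3, with 0 in the other siCasp8 libraries. Tlr9 had 1.19 in Scr replicate 3, and Cd180 had 0 in siCasp8 replicate 2 and 1.44 in Scr replicate 1.

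Among pathway genes, the siCasp8 libraries set apart were replicate 3 for Fadd (784) and Cyld (3603) and replicate 4 for Vcam1 (8789). In Scr, Irak3 had 293 in replicate 4, Rab7b 109 in replicate 1 and Il18rap 513 in replicate 2. Of the genes most like Cd14, Cenpn (265), Ulbp1 (442) and Bysl (934) were each lowest in Scr replicate 3, as Cd14 was. They were picked for that likeness.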

How the results depend on the processing

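Tlr3 and Cd14 were called under all 11 alternatives and all 8 fits without 1 library, as was Casp8. With estimated depth as a covariate, 2807 genes were called in place of 5689, 2 of the 10 genes in place of 6, and 35 of the 147 pathway genes in place of 63. The members called without 1 library ranged from 3 to 6, with 3 without siCasp8 replicate 1 or Scr replicate 3, pathway genes from 54 to 60 and all genes from 4800 to 5719. No other alternative moved these 3 totals by over 1.5 times outside the fits without 1 library. But a common total, the upper quartile and quantile normalization turned the balance of higher and lower calls over all genes. A common total and the upper quartile also turned it in the TRIF arm, and quantile normalization in the ubiquitin and TAK1 arm. The TRIF arm also had 3 higher and 2 lower without siCasp8 replicate 1. Its counts were equal in limma without a trend and without siCasp8 replicate 4 or Scr replicate 1, 2 or 3. Irak1 was also lost after upper quartile rescaling, rescaling to a common total, quantile normalization and in limma without a trend. The largest scaling shift of the median of all genes was 0.03. Values that changed sign were not called either way: Tlr2 (-0.08), Tlr4 (0.49), Traf6 (0.04), Lbp (0.01), Map3k7 (0.01), Nfkbia (0.06) and Pecam1 (0.53) with the depth covariate; Traf6 with the upper quartile (0.02), a common total (0.03), quantile normalization (0.01) and without Scr replicate 1 (0.02); Lbp with quantile normalization (0.03); and, over the fits without 1 library, Tlr4 (-0.35 to 0.13), Tlr5 (-0.19 to 0.80), Tlr6 (-0.03 to 0.32), Cd3d (-0.28 to 0.11) and Traf6 (-0.03 to 0.02). The causes were not tested.

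Replicate numbers are shared by the groups, but same-numbered libraries deviated together with correlations of only 0.044 to 0.169, so they were not taken as pairs, although each library correlated best with its own number. With the replicate number as a block, 6020 genes and 6 of the 10 genes were called. Without 1 library, the pair difference of Tlr2 over Tlr4 ranged from -0.09 to 0.39 and that of Tlr3 over Tlr4 from 0.23 to 0.74. That of Cd14 over Ly96 ranged from -0.62 to -0.46, and that of Irak1 over Irak4 from -0.46 to -0.36. For Ticam1 over Myd88 the range was 0.02 to 0.08. No pair passed the threshold under any alternative run. The smallest p that exact permutation between the groups can give is 0.0286, with all libraries or without 1 library. After adjustment, a pair at that floor passes only if several pairs reach it together. The absence of a pass is therefore largely set by the design and says little about the pairs.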
